A study of Homo sapiens with 4 samples.

Results

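A set of 9 forkhead genes known as targets or partners of Hedgehog (HH) signalling was followed in DAOY cells: FOXF1, FOXF2, FOXL1, FOXC1, FOXC2, FOXS1, FOXD1, FOXD2 and FOXM1. They were taken by symbol, and all 9 were found among the 20363 genes of the count table and passed the filter on low counts. DAOY is a line derived from a human medulloblastoma. Its RNA was sequenced as 1 library for each of 4 conditions, without replicates, and these are called ZNF521/SAG, ZNF521/DMSO, CTL/SAG and CTL/DMSO after their cells and treatment. SAG is an agonist of SMO that switches the Sonic hedgehog (SHH) pathway on, and DMSO is its vehicle. The study's methods describe stimulation of starved cells over a range of SAG doses, and the dose given to the sequenced cells is not given in the sources used here. ZNF521 cells were made with a lentiviral vector that expresses ZNF521 together with EGFP, and transduced cells were sorted for EGFP. The study used human or mouse cDNA under the name ZNF521. The deposited design calls the controls WT, whereas the paper describes transduced DAOY controls with the vector alone, so that which of them was sequenced is not settled. With WT controls, effects of transduction and of ZNF521 cannot be told apart.

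Forkhead factors share a DNA-binding domain of winged-helix fold and are named by letter for their subfamily. In the mouse embryo, HH ligands from epithelia switch on Foxf1, Foxf2 and Foxl1 in the mesenchyme of gut and lung through GLI factors, and in the mesenchyme of the face Foxc2, Foxd1 and Foxd2 depend on HH signals. FOXM1 drives the genes of G2 and mitosis and is active in dividing cells, among them granule neuron precursors of the cerebellum, which divide in response to SHH from Purkinje cells.

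The libraries held 16314685 counts in ZNF521/SAG cells, 13366535 in ZNF521/DMSO cells, 12294833 in CTL/SAG cells and 13468912 in CTL/DMSO cells. Levels are given as normalised counts, which are raw counts divided by the authors' size factor of each library. The vector and the agonist were visible in their own readouts. ZNF521 stood at 2072 and 2013 normalised counts in ZNF521/SAG and ZNF521/DMSO cells, and at 751 and 714 in CTL/SAG and CTL/DMSO cells. GLI1, the GLI factor induced by the pathway, stood at 318 and 44.2 in ZNF521/SAG and ZNF521/DMSO cells, and at 324 and 75.4 in CTL/SAG and CTL/DMSO cells. PTCH1, the receptor of HH ligands, stood at 579 and 301 in ZNF521/SAG and ZNF521/DMSO cells, and at 527 and 468 in CTL/SAG and CTL/DMSO cells. Of the 11 markers of the cerebellar granule lineage, 7 were tested, among them MEIS1 with a mean of 1003 normalised counts, PAX6 with 301 and ZIC1 with 271, while ATOH1, NEUROD2 and BARHL1 did not reach 10 counts in any library. The 11 summed to 1771 to 1916 normalised counts in the 4 libraries. All 12 mesenchymal markers were tested. The library of CTL/DMSO cells stood apart. The 12 mesenchymal markers summed to 84308 to 91114 normalised counts in the other libraries, against 145676 there, and the 9 tested of 10 pericyte markers to 1821 to 2074, against 3429 there. Single markers went both ways, with 6 of the 12 mesenchymal markers highest and 2 (PDGFRA and LUM) lowest in CTL/DMSO, and 4 of the 9 pericyte markers highest and 4 (RGS5, DES, KCNJ8 and ABCC9) lowest. Cells of a type and RNA per cell cannot be told apart in such bulk RNA. CTL/DMSO was the highest of the 4 libraries for 34.5% of all 14970 genes tested.

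In all, 8 of the 9 forkhead genes had their highest level in CTL/DMSO cells, against 34.5% of all genes tested. FOXS1 had its lowest level there, as did 37.5% of all genes, and its highest in CTL/SAG cells, as did 23.4%. No member was highest in ZNF521/SAG or ZNF521/DMSO cells, where 21.2% and 20.9% of all genes were. No member passed an adjusted p of 0.05 by edgeR for ZNF521 (0.00668% of all genes did) or for SAG (0.0401%). For ZNF521 the 1 gene that passed was ZNF521 itself (adjusted p = 0.00357 from edgeR), and for SAG 6 genes passed. A member that did not pass is thus not shown to be unchanged. Among unadjusted p values of 0.05 or less, FOXC2 was lower with ZNF521, as were 3.11% of all genes, and FOXS1 was higher with SAG, as were 6.21%. No member was higher with ZNF521 (2.36% of all genes) or lower with SAG (5.12%) at that threshold.

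**Figure D1:**
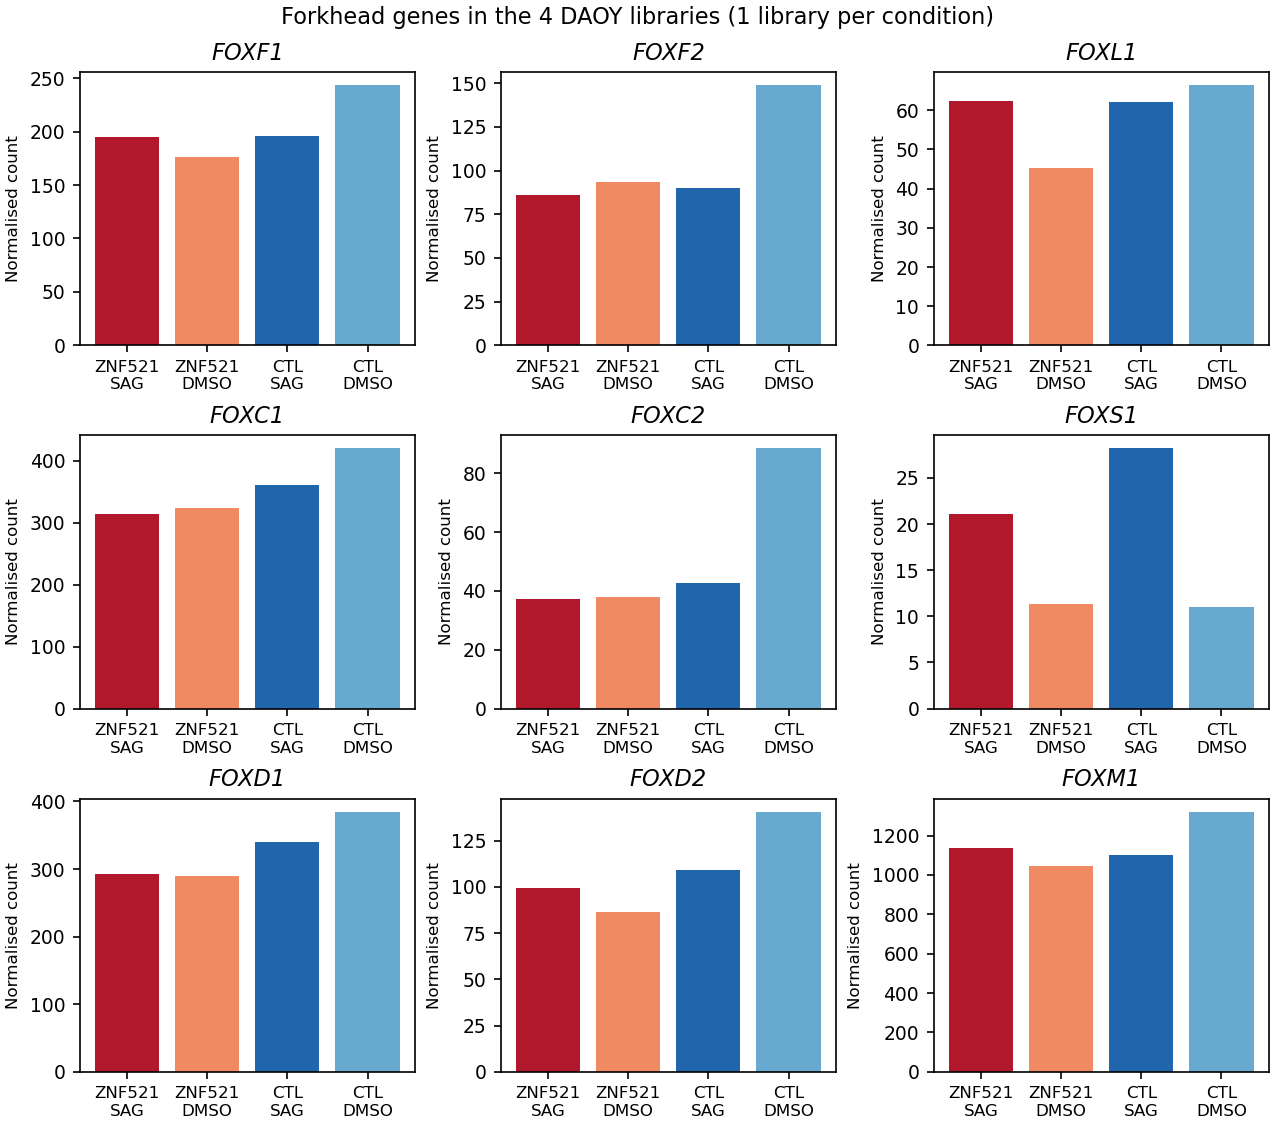
Normalised read counts of the 9 forkhead genes, 1 bar per library and no replicates, with a linear axis from 0 in each panel. FOXC2 stood at 37.1 to 42.9 in 3 libraries and at 88.5 in CTL/DMSO cells, and FOXS1 at 21.1 and 28.2 in the SAG libraries and at 11.3 and 11.1 in the DMSO libraries.

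The 2 libraries at each level of a factor were compared by the quasi-likelihood test of edgeR, with the other factor as a block, which leaves 1 residual degree of freedom. Both comparisons use all 4 libraries, and CTL/DMSO cells are on the reference side of each. Ratios of 2 single libraries carry exact 95% intervals (Clopper-Pearson) that cover counting error only, and there is no replicate check on them.

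FOXF1, which patterns the mesenchyme of gut and lung, lies on the plus strand of chromosome 16 of hg38, from 86510527 to 86515422. Its normalised count was 195 in ZNF521/SAG cells, 176 in ZNF521/DMSO cells, 196 in CTL/SAG cells and 243 in CTL/DMSO cells. The first 3 libraries lay close together and the CTL library with DMSO above them. FOXF1 gave log2 fold changes of -0.25 for ZNF521 (standard error 0.187, adjusted p = 0.967 from edgeR) and -0.08 for SAG (standard error 0.187, adjusted p = 0.881 from edgeR).

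FOXF2, its paralogue with a like role in mesenchyme, lies on the plus strand of chromosome 6, from 1389576 to 1395603. It had 86.1 normalised counts in ZNF521/SAG cells, 93.6 in ZNF521/DMSO cells, 90.2 in CTL/SAG cells and 149 in CTL/DMSO cells. Again 3 libraries were alike, within 1.09-fold of each other, and CTL/DMSO cells were 1.59-fold above the next. Its log2 fold changes were -0.39 for ZNF521 (standard error 0.227, adjusted p = 0.957 from edgeR) and -0.43 for SAG (standard error 0.227, adjusted p = 0.480 from edgeR). FOXF2 was the 1 member for which both SAG libraries lay below both DMSO libraries, as 22.7% of all genes did. Without the CTL/DMSO library, in fits where the other factor is not a term, its values were -0.0038 for ZNF521 and -0.10 for SAG.

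FOXL1, a factor of the mesenchyme beneath the gut epithelium, lies 6.64 kb downstream of FOXC2 on chromosome 16, from 86576368 to 86583478. It stood at 62.4 normalised counts in ZNF521/SAG cells, 45.3 in ZNF521/DMSO cells, 62.0 in CTL/SAG cells and 66.3 in CTL/DMSO cells. Here it was the ZNF521 library with DMSO that was low, while the CTL library with DMSO was only 1.06-fold above the next. The log2 fold change of FOXL1 was -0.27 for ZNF521 (standard error 0.263, adjusted p = 0.988 from edgeR). For SAG it was positive, as otherwise only for FOXS1 among the members, at 0.18 (standard error 0.263, adjusted p = 0.815 from edgeR).

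FOXC1, a factor of head and somite mesenchyme and of the meninges, lies on chromosome 6 from 1609915 to 1613897. Its levels were 315 in ZNF521/SAG cells, 324 in ZNF521/DMSO cells, 361 in CTL/SAG cells and 420.2 in CTL/DMSO cells. Both ZNF521 libraries were thus below both CTL libraries. The same held for FOXC2, FOXD1, FOXD2 and FOXF1, so that 5 of the 9 members did not overlap between ZNF521 and CTL cells in this direction, against 13% of all genes tested. The gap in SAG was within counting error, as the interval of that ratio held 1 for all 9 members. FOXF1 was level there, at 195 in ZNF521/SAG cells and 196 in CTL/SAG cells. No member had both ZNF521 libraries above both CTL libraries, which 13.3% of all genes did. FOXC1 had log2 fold changes of -0.30 for ZNF521 (standard error 0.164, adjusted p = 0.954 from edgeR) and -0.13 for SAG (standard error 0.164, adjusted p = 0.775 from edgeR).

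FOXC2, which acts in lymphatic vessels and in mesenchyme, lies on chromosome 16 from 86566829 to 86569728. It had 37.1 normalised counts in ZNF521/SAG cells, 38.1 in ZNF521/DMSO cells, 42.9 in CTL/SAG cells and 88.5 in CTL/DMSO cells. The level in CTL/DMSO cells was 2.06-fold above the next library, the widest such gap among the 9 genes. Its log2 fold change for ZNF521 was -0.76, with a 95% interval of -1.41 to -0.10 (unadjusted p = 0.0269, adjusted p = 0.893 from edgeR). For SAG the log2 fold change was -0.58 (standard error 0.303, adjusted p = 0.475 from edgeR). Without the CTL/DMSO library, in fits where the other factor is not a term, the values for FOXC2 were -0.18 for ZNF521 and 0.05 for SAG. With all libraries, its unadjusted p for ZNF521 was above 0.05 by DESeq2 (0.190) and by limma in the manner of the study (0.328).

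FOXD1, a factor of the kidney stroma and the retina, lies on the minus strand of chromosome 5, from 73444827 to 73448777. It stood at 293 in ZNF521/SAG cells, 290.2 in ZNF521/DMSO cells, 339 in CTL/SAG cells and 385 in CTL/DMSO cells. FOXD1 differed by a log2 fold change of -0.32 for ZNF521 (standard error 0.166, adjusted p = 0.941 from edgeR) and -0.09 for SAG (standard error 0.166, adjusted p = 0.860 from edgeR). FOXD2, its paralogue on chromosome 1 from 47438044 to 47440691, had 99.6 normalised counts in ZNF521/SAG cells, 86.4 in ZNF521/DMSO cells, 109 in CTL/SAG cells and 141 in CTL/DMSO cells. The order of the CTL libraries, and their place above the ZNF521 libraries, was the same as for FOXD1. For FOXD2 the log2 fold change with ZNF521 was -0.43 (standard error 0.223, adjusted p = 0.941 from edgeR).

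Most members come in paralogous pairs. For FOXF1 with FOXF2 and for FOXD1 with FOXD2, the longest run of bases that both transcripts share lies in the part that encodes the forkhead domain. These runs are shown because a read that falls wholly inside 1 of them cannot by itself be assigned to either gene. Capitals mark the shared run, lower case the 15 bases on each side, as read 5′ to 3′ from GENCODE transcripts on hg38. The run is 68 bases long for FOXF1 and FOXF2 and 77 for FOXD1 and FOXD2. With the flanking bases, the sequences shown span chr16:86510894-86510991 (plus strand) for FOXF1 and chr6:1390428-1390525 (plus strand) for FOXF2. Those of the other pair span chr5:73447815-73447921 (minus strand) for FOXD1 and chr1:47438583-47438689 (plus strand) for FOXD2.
FOXF1: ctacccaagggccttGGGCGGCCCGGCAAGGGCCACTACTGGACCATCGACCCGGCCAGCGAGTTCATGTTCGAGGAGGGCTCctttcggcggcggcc
FOXF2: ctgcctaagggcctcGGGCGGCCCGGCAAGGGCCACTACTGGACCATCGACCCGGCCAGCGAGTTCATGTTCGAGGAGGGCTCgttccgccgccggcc
FOXD1: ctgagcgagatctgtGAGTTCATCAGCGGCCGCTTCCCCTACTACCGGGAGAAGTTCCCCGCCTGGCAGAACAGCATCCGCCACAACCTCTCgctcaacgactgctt
FOXD2: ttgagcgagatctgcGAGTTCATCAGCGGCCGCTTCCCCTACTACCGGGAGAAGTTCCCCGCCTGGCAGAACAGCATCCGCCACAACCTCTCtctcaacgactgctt

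Such reads are few. Of all words of 50 bases, the length of 1 read, in the longest transcript of each member, 0.508% of FOXC1, 0.702% of FOXC2, 0.547% of FOXF1, 0.791% of FOXF2, 0.061% of FOXL1, 1.26% of FOXD1 and 1.73% of FOXD2 also occurred in another gene on the same strand. FOXM1 and FOXS1 had no such word. Overlap with genes on the other strand was wider: 231 exonic bases of FOXC2 lie over FOXC2-AS1, 424 of FOXD1 over FOXD1-AS1, and 782 of FOXM1 over ITFG2. The libraries were strand-specific, but the strand setting of the counting is not given in the sources used here. FOXC2-AS1 had at most 2.26 normalised counts in any library, and ITFG2 had 291 to 337.

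RefSeq promoters, from 250 bases before to 50 bases after the start of the gene (GRCh38.p14), were read for FOXC1, FOXF2, FOXD1 and FOXD2. The others, FOXF1, FOXL1, FOXC2, FOXS1 and FOXM1, were not matched. The core letters of a GLI site (ACCACCC, either strand) did not occur in any of the 4. Nor did the forkhead core TAAACA or the CHR element of mitotic promoters (TTTGAA), also on either strand. Of 27305 promoters of the same length, 4.8%, 12.4% and 15.4% held them. At such low shares, absence from all 4 does not set them apart from other promoters, and sites farther away were not read. GC content was 71.0% for FOXF2, 72.7% for FOXC1, 59.7% for FOXD1 and 76.7% for FOXD2. The promoters of FOXF2 (chr6:1389326-1389625, plus strand) and FOXC1 (chr6:1609665-1609964, plus strand) are shown as examples of this composition, in lower case since no motif was found in them.
FOXF2: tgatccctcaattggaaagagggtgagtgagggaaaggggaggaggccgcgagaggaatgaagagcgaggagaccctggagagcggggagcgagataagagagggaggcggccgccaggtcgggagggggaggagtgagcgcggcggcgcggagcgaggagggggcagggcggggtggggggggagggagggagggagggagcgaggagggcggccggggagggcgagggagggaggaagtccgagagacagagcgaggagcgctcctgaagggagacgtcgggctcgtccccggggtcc
FOXC1: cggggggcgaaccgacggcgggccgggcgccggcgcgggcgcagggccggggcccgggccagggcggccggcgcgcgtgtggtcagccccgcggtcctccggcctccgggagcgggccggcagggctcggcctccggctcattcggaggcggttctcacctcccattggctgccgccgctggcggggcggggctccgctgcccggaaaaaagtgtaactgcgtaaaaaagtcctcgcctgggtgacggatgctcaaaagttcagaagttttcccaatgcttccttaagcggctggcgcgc

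FOXM1, the mitotic activator, was the most abundant member. It is encoded on the minus strand of chromosome 12, from 2857680 to 2877174, and had 1136 normalised counts in ZNF521/SAG cells, 1046 in ZNF521/DMSO cells, 1103 in CTL/SAG cells and 1322 in CTL/DMSO cells. The highest and lowest libraries differed 1.26-fold, the narrowest range of the 9 genes. The log2 fold change of FOXM1 was -0.16 for ZNF521 (95% interval -0.50 to 0.18, adjusted p = 0.988 from edgeR) and -0.07 for SAG (95% interval -0.41 to 0.27, adjusted p = 0.878 from edgeR). With SAG it was 1.09-fold higher in ZNF521 cells (interval of the ratio 1.0 to 1.18), while in CTL cells the ratio was 0.834 (0.767 to 0.907).

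FOXS1, a factor known from pericytes and from the sensory neurons of the mouse neural crest, was the 1 member that was higher in both SAG libraries than in both DMSO libraries. It lies on the minus strand of chromosome 20, from 31844303 to 31845604, in a single exon. Its normalised count was 21.1 in ZNF521/SAG cells, 11.3 in ZNF521/DMSO cells, 28.2 in CTL/SAG cells and 11.1 in CTL/DMSO cells. These rest on 25, 11, 25 and 11 reads. The SAG and DMSO libraries did not overlap, which held in this direction for 25.4% of all genes tested. The fold change was 2.17-fold for SAG, a log2 value of 1.12 with a 95% interval of 0.22 to 2.02 (unadjusted p = 0.0184, adjusted p = 0.391 from edgeR). Fits that left out 1 library gave 0.91 to 1.32. The unadjusted p was above 0.05 without the CTL/SAG library (0.118 from edgeR), by DESeq2 (0.205) and by limma in the manner of the study (0.122). The ratio of SAG to DMSO was 1.86 in ZNF521 cells (0.884 to 4.20) and 2.55 in CTL cells (1.21 to 5.74). For ZNF521 the log2 fold change of FOXS1 was -0.26 (95% interval -1.14 to 0.62, adjusted p = 0.989 from edgeR).

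The neighbour of FOXS1 followed the same order of libraries. MYLK2, a myosin light chain kinase of skeletal muscle, lies 9.61 kb away on the plus strand, so that the genes point toward each other. It had 39.7 normalised counts in ZNF521/SAG cells, 23.7 in ZNF521/DMSO cells, 55.3 in CTL/SAG cells and 23.1 in CTL/DMSO cells. As for FOXS1, CTL/SAG cells were highest and both DMSO libraries were level. The log2 fold change of MYLK2 for SAG was 1.0 (standard error 0.316, unadjusted p = 0.00755, adjusted p = 0.391 from edgeR). DUSP15, a phosphatase gene 2.03 kb from FOXS1 on its other side, had a log2 fold change for SAG of -0.41 (standard error 0.208, adjusted p = 0.464 from edgeR), and TTLL9, 25 kb away, one of -0.46. Both SAG libraries of DUSP15, at 105 in ZNF521 cells and 99.2 in CTL cells, were below its DMSO libraries, at 123 in ZNF521 cells and 149 in CTL cells.

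**Figure D2:**
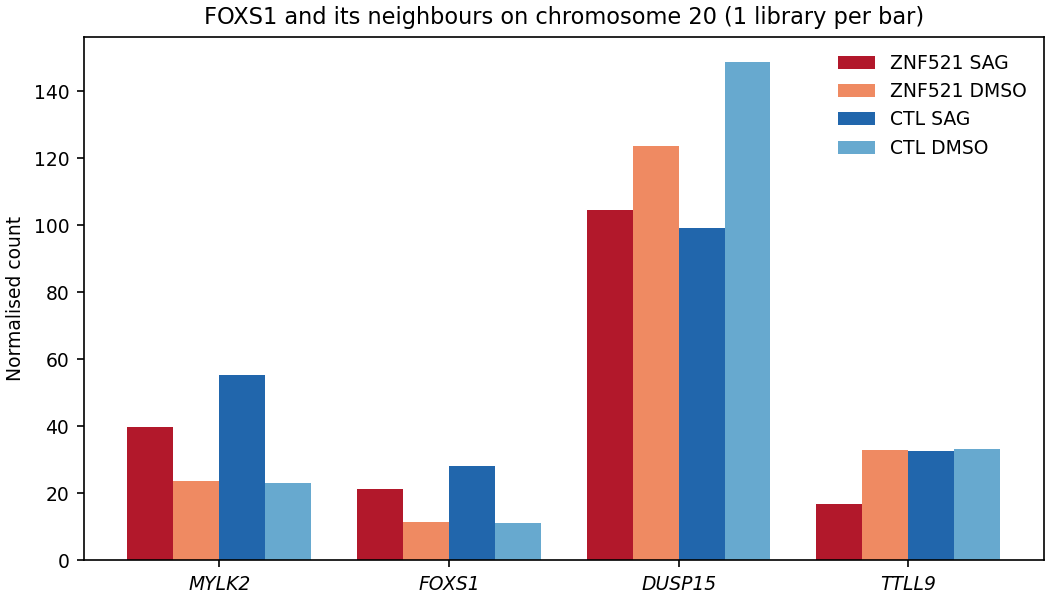
Normalised read counts of MYLK2, FOXS1, DUSP15 and TTLL9, in their order along chromosome 20, 1 bar per library. MYLK2 stood at 39.7 and 55.3 in the SAG libraries of ZNF521 and CTL cells and at 23.7 and 23.1 in their DMSO libraries, the order also seen for FOXS1.

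Pairs of libraries show where the lower levels of the other members lay. Between ZNF521 and CTL cells in DMSO, the interval of the ratio was below 1 for 7 of the 9 genes, against 20.8% of all genes tested, and above 1 for none, against 25.4%. In SAG the interval held 1 for all 9, and was below 1 for 10.2% and above 1 for 9.5% of all genes. FOXC2 had a ratio of 0.866 (0.548 to 1.37) in SAG and of 0.430 (0.285 to 0.639) in DMSO. FOXD2 stood at 0.910 (0.690 to 1.20) in SAG and at 0.614 (0.463 to 0.811) in DMSO. FOXF2 had ratios of 0.954 (0.705 to 1.29) in SAG and 0.629 (0.479 to 0.823) in DMSO. Between SAG and DMSO in ZNF521 cells, the interval held 1 for 8 of 9 genes and was above 1 for FOXM1, as for 16.8% of all genes (15.2% below). In CTL cells it was below 1 for 5 genes, FOXF1, FOXF2, FOXC1, FOXC2 and FOXM1, and above 1 for FOXS1, against 23% and 27.6% of all genes tested. Whether the effect of 1 factor differed between the levels of the other was not tested, as the design leaves no library for it.

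**Figure D3:**
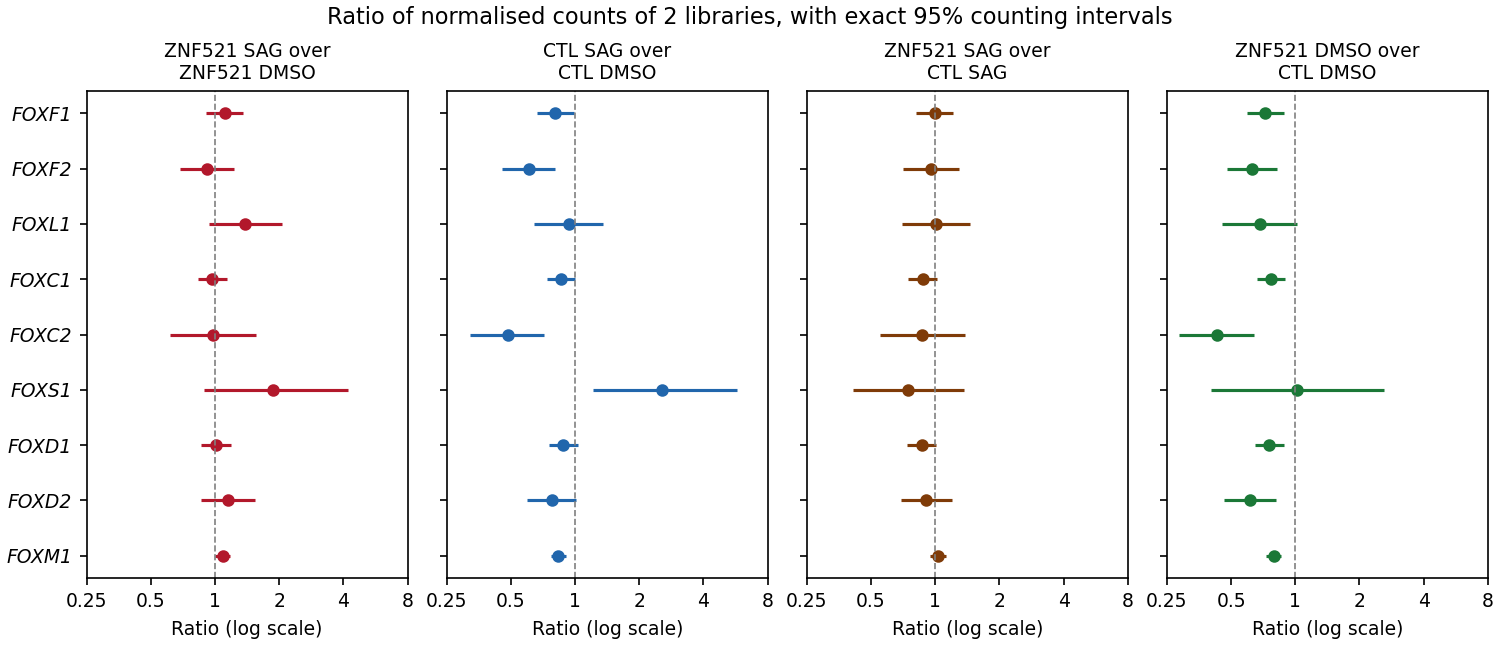
Ratios of normalised counts of 2 libraries on a log axis, with points for the ratio and lines for its exact 95% counting interval. In the panel of ZNF521 over CTL/SAG cells every line crosses 1, and in that with DMSO the lines of 7 genes lie below it, with FOXC2 at 0.430.

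Transcript GC content moved with the library of CTL/DMSO cells. Of 5 equal classes of genes, in that of highest GC content (58.0% to 76.0%), the log2 level in that library was a median of 0.25 above the mean of the other 3, and 59.4% of the genes were highest there. In the class of lowest GC content the median was -0.34 and 7.05% were highest there. Of the 9 members, 5 (FOXF2, FOXC2, FOXD1, FOXD2 and FOXS1) belong to the highest class, 2 (FOXC1 and FOXM1) to the next and 2 (FOXF1 and FOXL1) to the middle one. The deviation of FOXD1 was 0.33, near the median of its class, and those of FOXD2 (0.52), FOXF2 (0.73) and FOXC2 (1.17) were above the upper quartile of 0.51. FOXS1, with a GC content of 64.1%, deviated by -0.77, with 3.05% of all genes tested below it. After subtraction, in each library, of the median of genes in the same of 20 classes of GC content, 7 of the 9 were highest in CTL/DMSO cells, as were 34.6% of all genes, FOXD1 no longer, and the deviation of FOXC2 was 0.92 and that of FOXF2 0.47. Those of the rest of the 7 were smaller: 0.28 for FOXF1, 0.21 for FOXD2, 0.19 for FOXC1, 0.16 for FOXL1 and 0.12 for FOXM1. FOXL1 and FOXD2 led by little, at 0.118 and 0.154 in CTL/DMSO cells against 0.111 and 0.139 in CTL/SAG cells. The log2 fold change for SAG, less the median of its GC class, was -0.17 for FOXF2. It was 0.20 for FOXD1, 0.20 for FOXD2 and 0.05 for FOXM1, all of which were negative before, and 1.40 for FOXS1. Whether these levels are linked to those of the mesenchymal and pericyte marker genes was not tested.

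**Figure D4:**
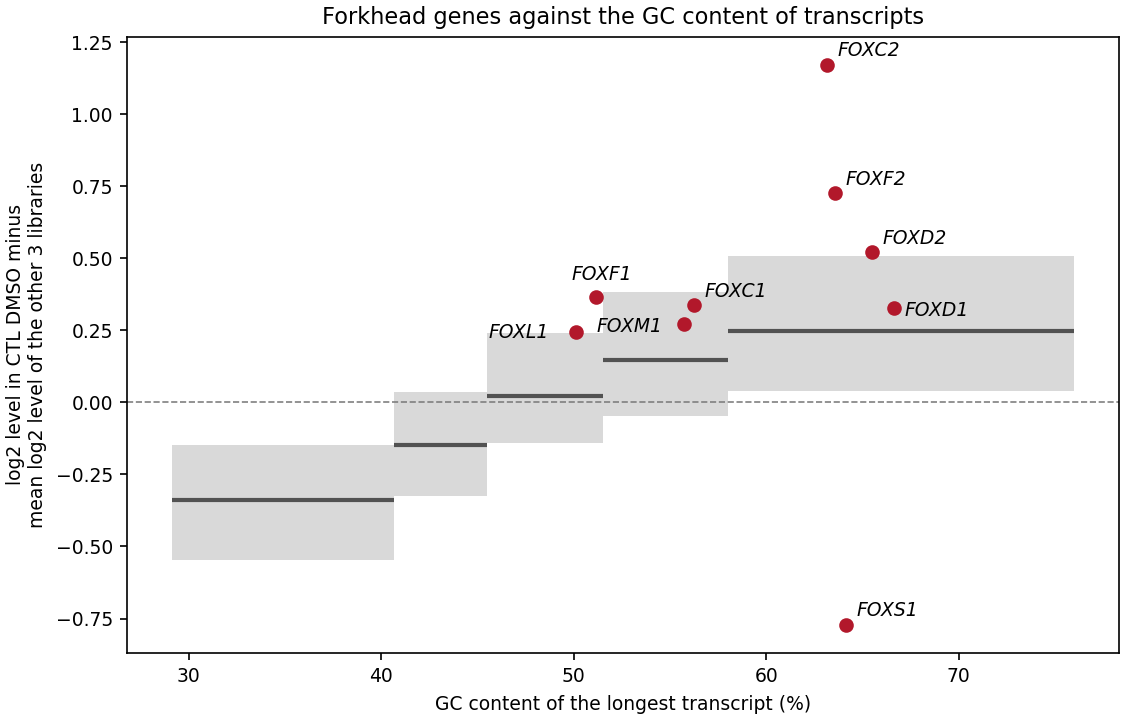
Log2 level in CTL/DMSO cells minus the mean log2 level of the other 3 libraries, against GC content of the longest transcript in percent. Grey boxes span the quartiles and dark lines the medians of 5 classes of all tested genes, which climb with GC content, and red points are the 9 forkhead genes, with FOXC2 at 1.17 and FOXS1 at -0.77.

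By level per length, in normalised counts per kb of exons averaged over the 4 libraries, the members ran in the order FOXM1 (234), FOXD1 (114), FOXC1 (89.1), FOXF1 (57.6), FOXF2 (42.7), FOXD2 (41.2), FOXC2 (17.8), FOXS1 (13.8) and FOXL1 (11.8). FOXM1, at 213 to 269, did not overlap with FOXD1, at 101 to 134. FOXD1 overlapped with FOXC1 (79.0 to 105), FOXF1 (50 to 69.1) with FOXF2 (35.1 to 60.7), and FOXF2 with FOXD2 (32.6 to 53.1). These ranges run over different conditions. Within each library FOXD1 was above FOXC1 and FOXF1 above FOXF2, while FOXF2 and FOXD2 changed order between libraries. FOXC2 (12.8 to 30.5), FOXS1 (8.49 to 21.7) and FOXL1 (9.02 to 13.2) overlapped as well. FOXC2 was above FOXL1 in each library, by little in ZNF521/SAG cells (12.8 against 12.4). The place of FOXS1 among them changed between libraries and is not settled. Of 43 forkhead genes in the table, FOXM1 ranked at 1, FOXD1 at 7, FOXC1 at 9 and the other members at 13 to 28.

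**Figure D5:**
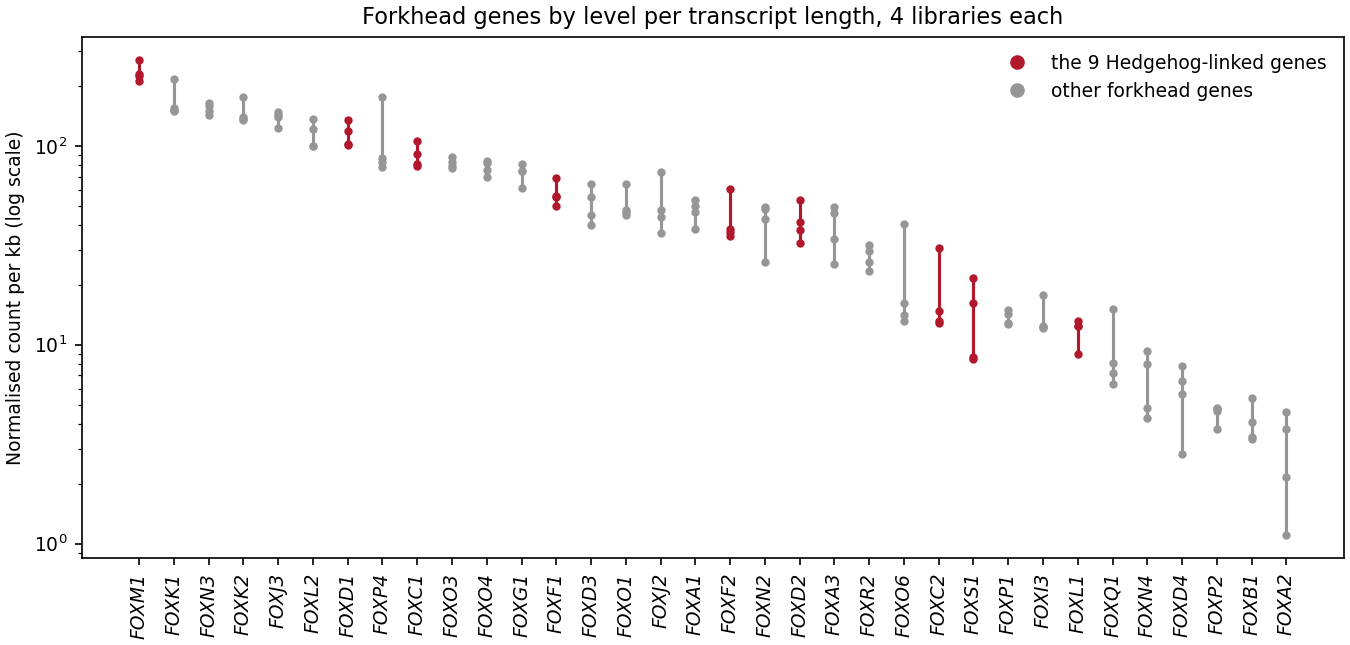
Normalised counts per kb of exons of the 34 tested forkhead genes on a log axis, with 1 point per library and a line from the lowest to the highest. The 9 Hedgehog-linked genes are in red, from FOXM1 with a mean of 234 to FOXL1 with a mean of 11.8.

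The other forkhead genes gave a background for the family. Of 40 listed, 25 were tested, and their median log2 fold change was -0.03 for ZNF521 and -0.13 for SAG, while that of the 9 members was -0.30 and -0.09 and that of all genes tested -0.0034 and 0.00055. Of the 25, 12 (48%) were highest in CTL/DMSO cells, against 34.5% of all genes tested. With unadjusted p values of 0.05 or less, FOXA3, a factor of liver and gut endoderm, was higher with ZNF521 (0.67, standard error 0.240), and FOXJ2 (-0.58, standard error 0.209) and FOXP4 (-0.49, standard error 0.220) were lower. For SAG, FOXN2 (0.53, standard error 0.195) was higher, and FOXP4 (-0.62, standard error 0.220), FOXN4 (-0.93, standard error 0.367) and FOXD3 (-0.48, standard error 0.205) were lower. FOXP4 had the same shape as FOXC2, with 667, 703 and 633 normalised counts in ZNF521/SAG cells, ZNF521/DMSO cells and CTL/SAG cells, against 1417 in CTL/DMSO cells. For ZNF521 these were 1 higher and 2 lower of the 25, against 2.36% and 3.11% of all genes. For SAG they were 1 higher and 3 lower, against 6.21% and 5.12%. None of the 25 passed the adjusted threshold in edgeR.

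The genomic neighbours of the members differed in how far they shared this shape. FENDRR, a long non-coding RNA gene 1.43 kb from FOXF1 on the opposite strand, had 111 normalised counts in ZNF521/SAG cells, 120.4 in ZNF521/DMSO cells, 113 in CTL/SAG cells and 178 in CTL/DMSO cells. It thus ran like FOXF2 and FOXC2. FOXD2-AS1, 3.40 kb from FOXD2, stood at 23.6, 25.7 and 28.2 in the first 3 of these libraries, against 51.3 in CTL/DMSO cells. FOXQ1, a forkhead gene 74.8 kb from FOXF2, stood at 16.9, 21.6 and 19.2, against 40.2. MTHFSD, 11.6 kb from FOXC2, did not share the shape, with 208, 246 and 226, against 224 in CTL/DMSO cells. Nor did 2 genes beside FOXM1. RHNO1, whose span overlaps that of FOXM1, stood at 507, 526 and 547, against 446. TULP3, 0.049 kb away, stood at 461, 371 and 424, against 436. None of FENDRR, FOXD2-AS1, FOXQ1 and MTHFSD passed the unadjusted threshold in either comparison.

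Hedgehog components and FOXM1 targets were set beside the members. Of 11 core Hedgehog genes, 2 passed the adjusted threshold for SAG, GLI1 and HHIP, a membrane antagonist of HH ligands, with log2 fold changes of 2.44 and 3.09 (adjusted p of 0.00054 and 0.00613 from edgeR). By unadjusted p of 0.05 or less, 3 of the 11 were higher with SAG and 2 lower (6.21% and 5.12% of all genes). The 3 were GLI1, HHIP and PTCH1 (0.55, standard error 0.194), and the 2 were GLI3 and GAS1 (-0.64, standard error 0.157). With ZNF521, 2 of the 11, GLI3 (-0.57) and GAS1 (-0.58), were lower by that threshold and none was higher (3.11% and 2.36% of all genes). Of the 11, 7 were highest in CTL/DMSO cells (34.5% of all genes were), among them GLI2 and GLI3, whose log2 fold changes for SAG were -0.42 and -0.50. GLI3 stood at 652, 625 and 653 in ZNF521/SAG, ZNF521/DMSO and CTL/SAG cells, against 1349 in CTL/DMSO cells. Its lower values with SAG and with ZNF521 thus rest on that library. GAS1 stood at 442, 637 and 603, against 1018, and was lower with SAG in ZNF521 cells too. Of 23 mitotic genes known as FOXM1 targets, 16 were lowest in CTL/DMSO cells and 5 highest, against 37.5% and 34.5% of all genes tested, and FOXM1 itself was highest there. With SAG, 4 of the 23 were higher and 1 lower with unadjusted p values of 0.05 or less, against 6.21% and 5.12% of all genes. CDK1, the kinase that starts mitosis, had 1072 normalised counts in ZNF521/SAG cells, 982 in ZNF521/DMSO cells, 1121 in CTL/SAG cells and 468 in CTL/DMSO cells, with a log2 fold change for SAG of 0.68 (standard error 0.220, adjusted p = 0.391 from edgeR). TOP2A, the topoisomerase of dividing cells, was at 0.46 (standard error 0.175) and NEK2, a centrosome kinase, at 0.43 (standard error 0.180). BUB1B, a checkpoint kinase, was the other of the 4, at 0.35 (standard error 0.151), and the 1 lower gene was CDC25B, a phosphatase that activates CDK1, at -0.39. With ZNF521, CDK1 was higher (0.48, standard error 0.219) and MKI67, a proliferation marker, lower (-0.47, standard error 0.205) by the unadjusted threshold, 1 of 23 in each direction against 2.36% and 3.11% of all genes. The transcripts of CDK1, TOP2A and NEK2 had a GC content of 37.0%, 38.9% and 41.8%, and that of FOXM1 55.7%. Among 16 regulators of FOXM1 and its partner complexes, CDK6, a G1 kinase (0.65, standard error 0.146), RBL1, a pocket protein (0.43, standard error 0.161), and LIN9, a subunit of the complex that recruits FOXM1 (0.50, standard error 0.211), were higher with SAG by the same threshold, and none was lower, against the same 6.21% and 5.12% of all genes. CDK6 and RBL1 were higher with SAG in both kinds of cells. LIN9 stood at 354, 344 and 357 in ZNF521/SAG, ZNF521/DMSO and CTL/SAG cells, against 179 in CTL/DMSO cells, so that its value rests mostly on that library. NEK2 ran much alike, at 520, 478 and 548, against 327. Transcript GC content was 39.7% for CDK6, 40.0% for RBL1 and 41.2% for LIN9.

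Genes of the most similar shape over the 4 libraries were sought for the 3 members of widest range among those with a mean of at least 50 normalised counts, by the root mean square difference of centred log2 levels over 12093 genes. For FOXC2 the 2 nearest were ARL10 (0.0515) and DTNBP1 (0.0582), for FOXF2 CDK18 (0.0152) and SRGAP3 (0.0210), and for FOXD2 CELF2 (0.0113) and NEURL1B (0.0141). ARL10 had 192, 180.1 and 206 normalised counts in ZNF521/SAG cells, ZNF521/DMSO cells and CTL/SAG cells, against 444 in CTL/DMSO cells. With 4 points a close match is easily found among so many genes, and FOXF2 ranked at 243 in likeness to FOXC2.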

How the data were processed

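Strand-specific libraries of RNA from DAOY cells, 4 in all, were sequenced as paired reads of 50 nt. Alignment to hg38 and counting per gene were done by the authors with STAR (2.7.0e in the submitters' processing notes), and the raw counts they deposited cover 20363 genes. The deposited signal values, for 19860 genes, are these counts after the authors divided them by 1 size factor per library (median of ratios, DESeq2). The annotation, the strand setting of the counting and any read filter are not given in the sources used here.

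A gene entered the fits if 2 libraries or more had 10 counts or more, which left 14970. EdgeR 4.0.16 in R 4.3.3 (TMM, glmQLFit, glmQLFTest) was run with ZNF521 and treatment as additive terms, since the study used a paired test and libraries that share the other factor were taken as the pairs, and p values were adjusted by Benjamini-Hochberg over all genes fitted. There was 1 residual degree of freedom beside a prior of 11.7 taken from all genes. That 1 is the departure from additive effects, and no spread between replicates of a condition is measured. A level that stands apart in 1 library alone thus also enters the error of the test. Alternatives were RLE factors, library size alone, no filter, genes that average 50 counts or more, DESeq2 (1.42.0), limma (3.58.1) with a trend, limma in the manner of the study (normalised counts set to at least 1, 1.5-fold filter), no block, GC content, each pair alone and each library left out. Tests were checked on simulated data.

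Intervals of ratios were computed with scipy 1.17.1. Gene models were those of GENCODE v44 (19803 of 20363 genes matched), and promoters those of RefSeq for 4 of the 9 members. Members and lists were chosen with earlier results of these data known. Named genes were the 9 members, ZNF521, GLI1, HHIP and PTCH1 as checks, up to 4 genes of smallest unadjusted p per list, neighbours and antisense partners of members, and the 2 genes most alike to each of 3 members. FOXN4, FOXD3, GLI2, GLI3, BUB1B and CDC25B were named after their values were seen. Some items, among them sequences, are not reported here.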

Additional observations from a re-analysis of the deposited data

Results flagged for a closer look

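FOXM1 went opposite ways with SAG in the 2 kinds of cells. With the authors' size factors, neither counting interval held 1. The log2 ratio of SAG to DMSO was 0.12 in ZNF521 cells and -0.26 in CTL cells, a difference of 0.38. With 1 library per condition this difference was not tested, and the lower interval bound in ZNF521 cells lies next to 1. Subtraction of GC medians left FOXM1 at log2 values of 0.05 in ZNF521/SAG and -0.16 in ZNF521/DMSO cells. In CTL cells the values were -0.0002 with SAG and 0.0861 with DMSO, a narrower gap than before.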

How the results depend on the processing

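Counts of members with an unadjusted p of 0.05 or less, 1 of 9 for ZNF521 and 1 of 9 for SAG, were 2 and 3 with no filter on low counts, 0 and 0 by DESeq2, and 0 and 0 in the study's kind of paired test, where 3 members passed its fold filter. For SAG the count was 0 when only genes that average 50 counts or more were kept, since FOXS1 then falls out. With 1 library left out and the factor as the only term, the counts ran over 0 to 6 for ZNF521 and 0 to 8 for SAG, and those past the adjusted threshold over 0 to 3 in each. The 3 for ZNF521, FOXF2, FOXC2 and FOXD2, passed without CTL/SAG cells, where 2340 genes passed in all, and the 3 for SAG, FOXF2, FOXC2 and FOXM1, without ZNF521/DMSO cells, where 4513 did. Without CTL/DMSO cells the count was 0 for ZNF521. Such fits leave 1 arm with a single library, which is assumed to vary like the others. The other factor is not a term in them, so that effects of ZNF521 and SAG are in part mixed in each value. Across these fits the log2 fold change for ZNF521 ran over -0.78 to 0.56 for FOXS1, and kept its sign for the other 8 members, over -0.75 to -0.0038 for FOXF2 and -1.25 to -0.18 for FOXC2. For SAG it ran over -0.33 to 0.15 for FOXF1, -0.77 to -0.10 for FOXF2, -0.33 to 0.0478 for FOXC1, -1.16 to 0.0545 for FOXC2, -0.30 to 0.11 for FOXD1, -0.45 to 0.26 for FOXD2, -0.25 to 0.0927 for FOXM1 and -0.10 to 0.45 for FOXL1, while FOXS1 kept a value of 0.91 to 1.32. After subtraction of GC medians the values for SAG changed sign for FOXD1 (0.20), FOXD2 (0.20) and FOXM1 (0.05), none of them called, and that of FOXF2 was -0.17. Under RLE factors, library size alone, no block and limma with a trend no member changed direction or passed the adjusted threshold. The count of members highest in CTL/DMSO cells was 8 under library size alone and TMM, and 7 after subtraction of GC medians, settings chosen after the values were seen. Some of these 7 led by little, as FOXL1 at 0.118 against 0.111 in CTL/SAG cells. Without the CTL/DMSO library 6 were highest in CTL/SAG cells, against 32.6% of all genes. The labels give no replicate numbers to pair by, and libraries were paired only through the other factor. Counts of 11 to 25 reads limit FOXS1.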
